A study of Homo sapiens with 9 samples.

Results

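Gene expression of YAP1, its paralogue WWTR1 (which encodes TAZ), their DNA-binding partner TEAD1 and 6 genes known as YAP and TAZ targets or regulators was followed in HT1080, a human fibrosarcoma cell line. The 9 genes were chosen by name, with earlier results of these data known. Every probe set of the array annotated to one of them alone was looked up. Of 22 such probe sets, 17 had values, and they covered 8 of the 9 genes among 9453 genes and 17466 non-control probe sets with values in all. ANKRD1, a cardiac ankyrin repeat protein used as a marker of YAP activity, had 1 probe set and no value. One of 3 TEAD1, 2 of 4 LATS2 and 1 of 4 AJUBA probe sets also had no values.

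The arrays came from 3 groups of 3. The first was MTAP-positive HT1080 cells given 10 µM of the MTAP inhibitor MT-DADMe-ImmA for 48 hours before harvest, the next MTAP-positive cells without inhibitor, and the last MTAP-negative cells without inhibitor. MTAP is methylthioadenosine phosphorylase, which salvages methionine and adenine from a by-product of polyamine synthesis. How the MTAP-positive cells were derived, and whether they are 1 clone, is not stated by the labels or the series text. All groups share the same line, medium and stated confluency.

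YAP and TAZ are coactivators that bind no DNA themselves. The Hippo kinases, with LATS1 and LATS2 at the end of the cascade, phosphorylate them, so that they stay in the cytoplasm or are degraded. Unphosphorylated YAP and TAZ enter the nucleus, bind TEAD factors and raise genes such as CCN1 and CCN2. They are known to respond to cell density, matrix stiffness and actin tension. The arrays measured RNA, not the phosphorylation or place of either protein.

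MTAP mRNA followed the labels, with log2 means ± SD over 3 arrays of 11.20 ± 0.10 in inhibitor-treated cells, 11.58 ± 0.19 in MTAP-positive cells and 4.56 ± 0.41 in MTAP-negative cells. Of 7 markers of mesenchymal or fibrosarcoma cells 6 had values, VIM and CD44 among them. None of 5 epithelial, 3 endothelial or 2 liver markers had any. The mesenchymal marker FN1 was called higher in inhibitor-treated (12.38 ± 0.12) and MTAP-positive cells (12.15 ± 0.28) than in MTAP-negative cells (10.81 ± 0.18). CDH2 was called higher only in inhibitor-treated (10.70 ± 0.15) against MTAP-negative cells (10.20 ± 0.09). No other mesenchymal or fibrosarcoma marker was called. One of 5 blood markers (LYZ), 1 of 4 smooth muscle (ACTA2) and 1 of 4 neural (TUBB3) markers had values, while PTPRC, DES, MYH11, SOX10 and GFAP had none. LYZ was called in all 3 comparisons, at 5.63 to 5.72 in inhibitor-treated, 6.76 to 7.68 in MTAP-positive and 4.83 to 4.96 in MTAP-negative cells. Every probe set with values reached 6.64 on at least 3 arrays, and LYZ did so only in MTAP-positive cells. It thus has values only through the group where it is high, and its calls are given as description. TUBB3 was called lower in inhibitor-treated cells against both other groups, at 12.17 to 12.37 there, 12.55 to 12.85 in MTAP-positive and 12.62 to 12.97 in MTAP-negative cells. The part of these markers in the results was not tested. Array medians lay between 8.24 and 8.38. As a measure of RNA integrity, the 5' probe set of ACTB was set against its 3' probe set, and their log2 difference was -1.64 ± 0.66 in inhibitor-treated, -1.43 ± 0.45 in MTAP-positive and -2.50 ± 0.90 in MTAP-negative cells, lowest on MTAP-negative replicate 3 (-3.52). Below, a change is a log2 difference between group means with its standard error (SE), tested with limma on all 9 arrays, and "called" means an adjusted p below 0.05 over all 17466 probe sets. A gene is read through its probe set of highest mean. Other probe sets are given beside it for some genes only. Where none is given, another probe set may still differ in call or direction.

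The first question was how the genes differ between cells with and without MTAP. The secreted matricellular proteins CCN1 (also CYR61) and CCN2 (also CTGF), the most used readouts of YAP and TAZ, were 1.79-fold and 1.71-fold lower in MTAP-positive cells. WWTR1, which encodes the coactivator TAZ, was 1.97-fold higher. The kinase gene LATS2 was 1.35-fold lower, close to the threshold, and YAP1, TEAD1, AMOTL2 and AJUBA were not called. Thus 4 of 8 genes were called, 1 higher and 3 lower, against 15.1% of all genes, 9.84% higher and 5.31% lower. Members and lists were chosen with earlier results known, so such counts, here and below, are description and no test of the set. Of the calls over all genes 64.9% were higher, but 46.1% with arrays centred on their medians and 47.8% with arrays quantile normalised again. The members' median change was -0.19, against 0.02 over all genes. In bulk RNA, fewer cells with a transcript and less of it per cell cannot be told apart.

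CCN1, an extracellular ligand of integrins, read 11.38, 11.32 and 11.63 on the MTAP-positive arrays, against 12.35, 12.19 and 12.31 on the MTAP-negative arrays (probe set 201289_at, log2, replicates 1 to 3). All 3 MTAP-positive arrays lay below all 3 MTAP-negative arrays. The change was -0.84 ± 0.11 (adjusted p = 0.00135). The other CCN1 probe set, 210764_s_at, read 10.58, 10.56 and 10.65 in MTAP-positive cells, against 11.43, 11.04 and 11.08 in MTAP-negative cells. It was called in the same direction (-0.59 ± 0.12, adjusted p = 0.0122).

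CCN2, which binds growth factors and matrix and promotes fibrosis, read 10.17, 10.21 and 10.42 in MTAP-positive cells, against 11.00, 11.11 and 11.02 in MTAP-negative cells (209101_at, its only probe set). The groups again lay apart, and the change was -0.77 ± 0.10 (adjusted p = 0.00147). With the ACTB difference as a covariate, CCN1 differed by -0.77 (adjusted p = 0.0189) and CCN2 by -0.75 (adjusted p = 0.0187), so both calls held.

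WWTR1 read 11.19, 11.35 and 11.41 in MTAP-positive cells, against 10.40, 10.37 and 10.24 in MTAP-negative cells (202133_at). This was the largest change of the 8 genes, at 0.98 ± 0.11 (adjusted p = 6.67e-04), and 0.90 with the ACTB covariate (adjusted p = 0.00967). The remaining WWTR1 probe sets were not called. They differed by 0.45 ± 0.16 for 202134_s_at (adjusted p = 0.0850) and 0.71 ± 0.29 for 202132_at (adjusted p = 0.127). The WWTR1 mRNA was thus higher in the cells in which the target genes CCN1 and CCN2 were lower.

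YAP1 was spread over 3 probe sets, none of which was called. By 224894_at it read 10.73, 11.09 and 10.88 in MTAP-positive cells, against 10.77, 10.64 and 10.72 in MTAP-negative cells, and the groups overlapped. Its change was 0.19 ± 0.11 (95% interval -0.06 to 0.45, adjusted p = 0.274). The probe sets 224895_at (0.58 ± 0.18, adjusted p = 0.0587) and 213342_at (0.29 ± 0.11, adjusted p = 0.104) had groups that lay apart. The mean of the 3 probe sets passed the test, at 0.35 (adjusted p = 0.0480). TEAD1, the factor that tethers YAP and TAZ to DNA, differed by -0.04 ± 0.18 (224955_at, 95% interval -0.45 to 0.36, adjusted p = 0.896). Its MTAP-positive arrays ran widely, at 10.74, 11.47 and 11.08, and enclosed the MTAP-negative arrays at 11.31, 10.95 and 11.16.

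LATS2 and AMOTL2 are targets that also feed back, since LATS2 phosphorylates YAP and angiomotin-like 2 holds it outside the nucleus. LATS2 read 9.70, 9.59 and 9.61 in MTAP-positive cells, against 9.87, 10.06 and 10.27 in MTAP-negative cells (227013_at), a change of -0.43 ± 0.12 (adjusted p = 0.0443). The LATS2 call was lost in 12 of 20 alternatives, among them the ACTB covariate (adjusted p = 0.242), the 2 groups fitted alone (0.0950) and leaving out MTAP-negative replicate 3 (0.135) or MTAP-positive replicate 3 (0.104). The other LATS2 probe set, 223380_s_at, differed by -0.09 ± 0.13. AMOTL2 read 10.54, 10.77 and 10.42 in MTAP-positive cells, against 10.93, 11.08 and 10.75 in MTAP-negative cells. Its change of -0.34 ± 0.12 was not called (adjusted p = 0.0934), and the groups overlapped by 1 array on each side.

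AJUBA encodes a LIM-domain protein that binds LATS kinases and restrains them. By 225806_at it differed by 0.03 ± 0.13 (95% interval -0.27 to 0.33, adjusted p = 0.919). Its other probe sets differed by 0.21 ± 0.16 and by 0.37 ± 0.12 (225807_at, adjusted p = 0.0706), and none was called. Over all 17 probe sets 1 was called higher and 4 lower, against 14.8% of all probe sets called in either direction.

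**Figure D1:**
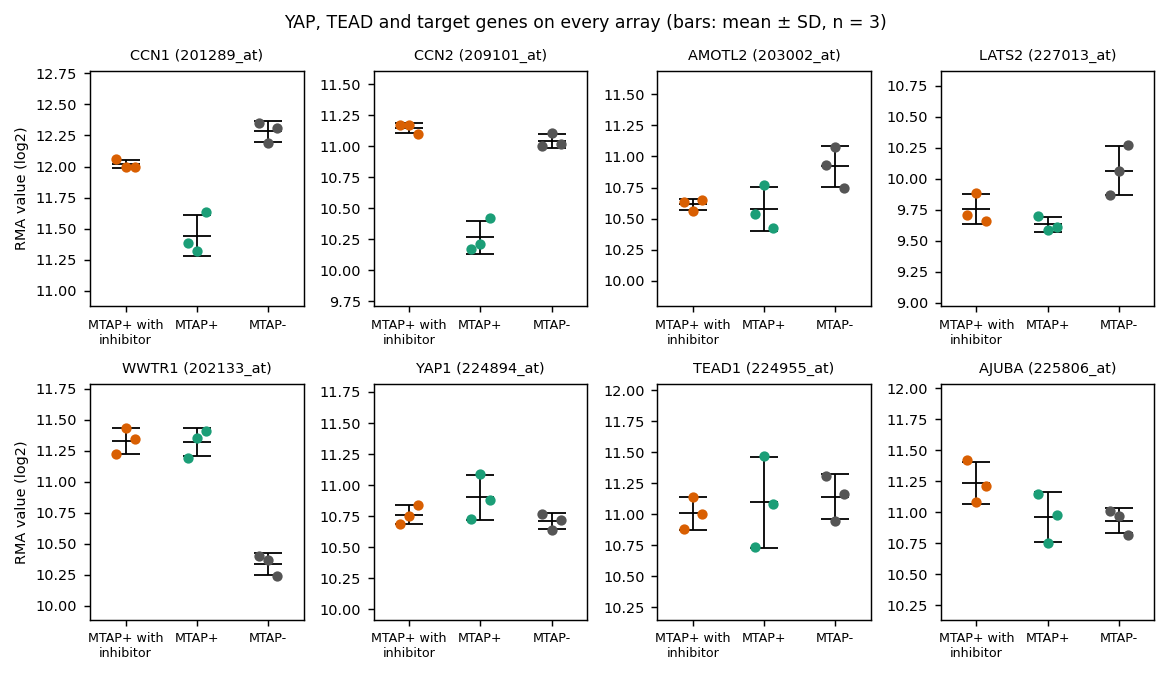
Values of the 8 genes with values on each array (log2 RMA, y axis, spanning the same range in each panel) by group; points are arrays, bars the mean ± SD (n = 3). CCN1 and CCN2 are lowest on the 3 MTAP-positive arrays without inhibitor, whereas WWTR1 is near 11.3 in both MTAP-positive groups (means 11.33 with inhibitor and 11.32 without) and 10.34 in MTAP-negative cells.

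The next question was how the members differ in MTAP-positive cells once the enzyme is inhibited. CCN2 was 1.84-fold and CCN1 1.49-fold higher in inhibitor-treated cells, and no other member was called. This made 2 of 8 genes, both higher, against 10.6% of all genes, 4.63% higher and 5.95% lower. Their median change was 0.08, against -0.02 over all genes. By probe set 3 of 17 were called, all higher, against 10.3% of all probe sets. By 202133_at WWTR1 differed by 0.01 ± 0.11 (95% interval -0.23 to 0.25, adjusted p = 0.957). Its probe set 202134_s_at differed by -0.39 ± 0.16 (-0.74 to -0.03, adjusted p = 0.153) and 202132_at by -0.14 ± 0.29 (adjusted p = 0.799), neither of them called. This comparison and the first share the MTAP-positive arrays, so a low value there moves both changes.

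CCN2 read 11.17, 11.17 and 11.10 in inhibitor-treated cells, against 10.17, 10.21 and 10.42 in MTAP-positive cells. The change was 0.88 ± 0.10 (adjusted p = 0.00224). CCN1 read 12.06, 12.00 and 12.00 by 201289_at in inhibitor-treated cells, against 11.38, 11.32 and 11.63. In both genes every inhibitor-treated array lay above every MTAP-positive array. CCN1 rose by 0.58 ± 0.11 (adjusted p = 0.0119) by this probe set and by 0.57 ± 0.12 (adjusted p = 0.0189) by 210764_s_at, which read 11.12, 11.26 and 11.13 in inhibitor-treated cells. Without inhibitor-treated replicate 3 the CCN1 call was lost at a change of 0.59 (adjusted p = 0.0558). The ACTB difference was similar in these groups, and with it as a covariate CCN1 differed by 0.56 (adjusted p = 0.0207) and CCN2 by 0.87 (adjusted p = 0.00464).

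Among the other members, AJUBA differed by 0.28 ± 0.13 (95% interval -0.02 to 0.58, adjusted p = 0.215) and YAP1 by -0.14 ± 0.11 (-0.40 to 0.11, adjusted p = 0.464). The YAP1 probe set 213342_at read 8.29, 8.35 and 8.17 in inhibitor-treated cells, against 8.73, 8.69 and 8.48 in MTAP-positive cells. Its groups lay apart, yet the change of -0.36 ± 0.11 was not called (adjusted p = 0.0661). LATS2, AMOTL2 and TEAD1 differed by 0.12 ± 0.12, 0.04 ± 0.12 and -0.09 ± 0.18, with adjusted p of 0.571, 0.880 and 0.798. The other LATS2 probe set, 223380_s_at, had the opposite sign (-0.17 ± 0.13, adjusted p = 0.469). The feedback genes LATS2 and AMOTL2 thus gave no call where CCN1 and CCN2 did, and whether they differ from CCN1 and CCN2 in their change was not tested.

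**Figure D2:**
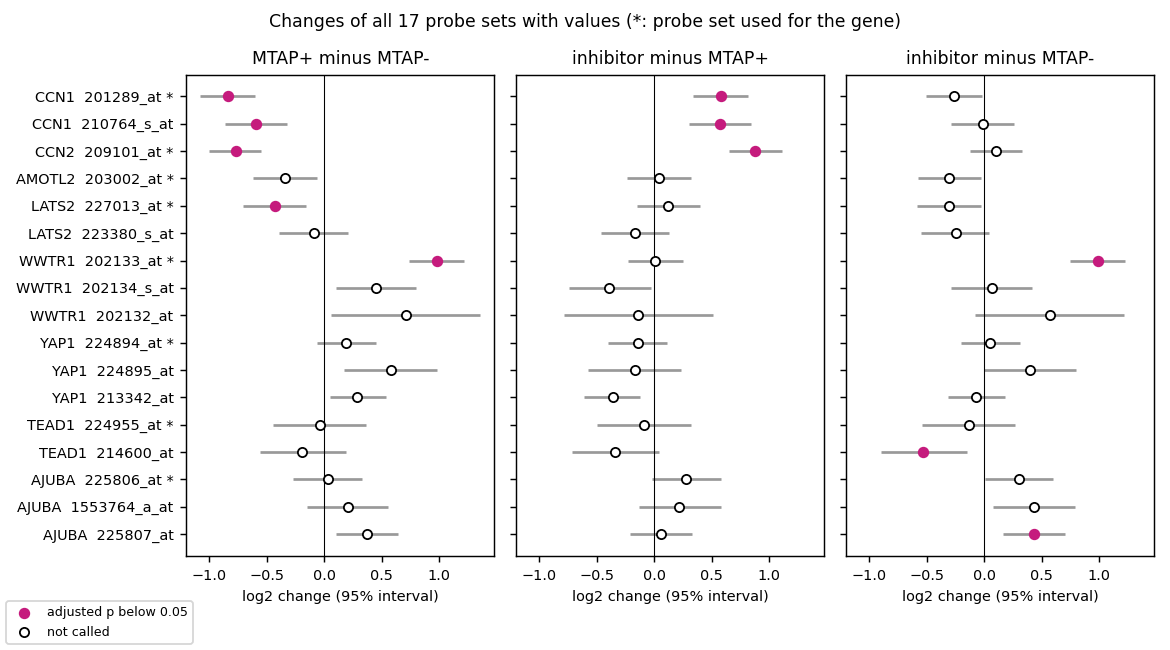
Log2 change (x axis) with its 95% interval for each of the 17 probe sets in the 3 comparisons; filled points have an adjusted p below 0.05, and an asterisk marks the probe set used for its gene. Both CCN1 probe sets and the CCN2 probe set lie left of 0 for MTAP-positive minus MTAP-negative cells and right of 0 for the inhibitor.

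The last comparison set cells with an inhibited enzyme against cells without it. WWTR1 was the only member called, 1.99-fold higher, while CCN2 and CCN1 were no longer called. This is 1 of 8 genes, against 32.2% of all genes, 17.3% higher and 14.9% lower, and the median change was -0.04, against 0.00 over all genes. WWTR1 read 11.22, 11.43 and 11.34 in inhibitor-treated cells, against 10.40, 10.37 and 10.24 in MTAP-negative cells, a change of 0.99 ± 0.11 (adjusted p = 2.64e-04). Its probe set 202132_at differed by 0.57 ± 0.29 and 202134_s_at by 0.07 ± 0.16, neither of them called, so that the WWTR1 probe sets disagree in size here.

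In the same contrast CCN2 differed by 0.10 ± 0.10 (95% interval -0.12 to 0.33, adjusted p = 0.461), and the arrays overlapped. CCN1 differed by -0.26 ± 0.11 (-0.51 to -0.02, adjusted p = 0.0919) by 201289_at, whose groups lay apart, and by -0.01 ± 0.12 by 210764_s_at. AMOTL2 and LATS2 both differed by -0.31 ± 0.12 (adjusted p = 0.0923 and 0.0845), and AJUBA by 0.30 ± 0.13 (adjusted p = 0.113). Over all 17 probe sets 2 were called higher and 1 lower, against 30.7% of all probe sets. Among those not used for their gene, AJUBA 225807_at was called higher (0.43 ± 0.12, adjusted p = 0.0243) and TEAD1 214600_at lower (-0.53 ± 0.17, adjusted p = 0.0392). The TEAD1 probe set was dim, at 6.55, 5.87 and 6.45 in inhibitor-treated cells, against 6.84, 6.85 and 6.75, and 6.64 is the level that every probe set with values reached on at least 3 arrays.

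Read by level, CCN2 was lowest in MTAP-positive cells (10.27 ± 0.14), and its means of 11.15 ± 0.04 with inhibitor and 11.04 ± 0.06 without MTAP did not differ beyond the test. CCN1 followed the same order at the low end (11.44 ± 0.16), with 12.02 ± 0.03 in inhibitor-treated and 12.28 ± 0.08 in MTAP-negative cells. By 202133_at WWTR1 had its low end in MTAP-negative cells (10.34 ± 0.09). Its means of 11.33 ± 0.11 in MTAP-positive cells with inhibitor and 11.32 ± 0.12 without it could not be told apart. By 202134_s_at WWTR1 averaged 9.16 ± 0.19 in inhibitor-treated, 9.54 ± 0.28 in MTAP-positive and 9.09 ± 0.12 in MTAP-negative cells. By 202132_at the means were 9.29 ± 0.51, 9.43 ± 0.44 and 8.72 ± 0.32 in the same order. For LATS2 the MTAP-negative mean was highest at 10.07 ± 0.20, above 9.76 ± 0.12 with inhibitor and 9.63 ± 0.06 without (SD, n = 3 throughout).

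The promoters of the members were searched for the letters of the TEAD motif, GGAATG or CATTCC on the other strand. They were also searched for a loose form of the AP-1 motif, TGANTCA, where N is any base. AP-1 factors are known to bind beside TEADs at many YAP sites. RefSeq promoters of 7 of the 9 members were matched, 10 in all since some genes have several starts, and the 250 bases before each start were read. CCN1 and TEAD1 were not matched. TEAD letters occurred in 5 of the 10 promoters, against 11.9% of all 35114 promoters of the same length. They also occurred in 5 of 13 promoters (38.5%) of the other YAP and TAZ signature targets listed below. Hippo regulators had them in 3 of 25 (12.0%), and other TEADs and cofactors in 1 of 11 (9.09%). The loose AP-1 letters occurred in 1 member promoter, that of ANKRD1 (tgattca), against 6.57% of all promoters. CCN2 is shown because it moved in both MTAP-positive comparisons and holds 3 TEAD matches, and the second of the AMOTL2 starts, with 1 match, as a target that was not called. Both lie on the minus strand of GRCh38.p14, CCN2 at chr6:131951373-131951622 and AMOTL2 at chr3:134374448-134374697, and TEAD letters are in capitals.
CCN2: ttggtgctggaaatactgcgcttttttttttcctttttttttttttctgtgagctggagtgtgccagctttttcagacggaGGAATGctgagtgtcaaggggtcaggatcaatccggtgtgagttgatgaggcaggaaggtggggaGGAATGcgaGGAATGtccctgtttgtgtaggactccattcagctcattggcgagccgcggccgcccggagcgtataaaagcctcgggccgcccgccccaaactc
AMOTL2: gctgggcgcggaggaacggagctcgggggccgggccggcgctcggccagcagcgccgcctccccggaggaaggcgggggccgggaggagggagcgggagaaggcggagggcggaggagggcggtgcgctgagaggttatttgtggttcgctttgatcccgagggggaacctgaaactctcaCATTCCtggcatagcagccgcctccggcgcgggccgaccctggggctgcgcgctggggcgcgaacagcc
In CCN2 the matches began 169, 104 and 95 bases before the start, and in AMOTL2 69 bases before it. YAP1 held 1 match, ANKRD1 2, 1 of the AJUBA promoters 1, and LATS2 and both WWTR1 promoters none. A match describes letters and no binding was measured.

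**Figure D3:**
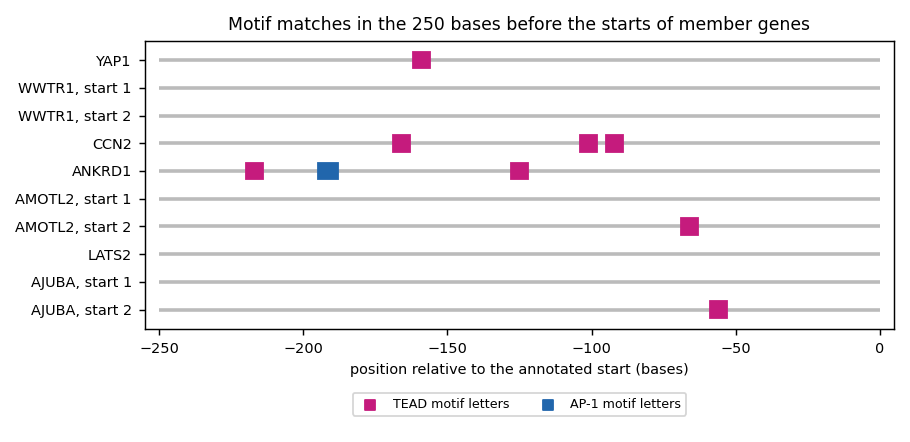
Matches to TEAD and AP-1 motif letters in the 250 bases before each annotated start of the 7 matched members (x axis, bases from the start; 1 line per promoter). CCN2 holds 3 TEAD matches and ANKRD1 2 with 1 match to the loose AP-1 letters (tgattca) between them.

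Beyond the members, a published signature of YAP and TAZ targets gave 17 further genes, 13 of them with values. Between MTAP-positive and MTAP-negative cells 1 was higher and 1 lower, near the 15.1% of all genes called, with a median change of -0.10, against 0.02 over all genes. The lower one was F3, tissue factor, which starts blood coagulation, at 7.59, 7.54 and 7.09 in MTAP-positive cells, against 8.77, 8.69 and 8.80 in MTAP-negative cells (-1.35 ± 0.14, adjusted p = 4.98e-04). The higher one was the cytokine gene TGFB2 (0.87 ± 0.17, adjusted p = 0.0102), whose call was lost with the ACTB covariate (0.0533). With the replicate number as a block 21.6% of all genes passed. Of the signature 4 genes did, 1 higher and 3 lower, the added ones being the receptor kinase AXL (-0.72 ± 0.18, adjusted p = 0.0301) and the matrix protein CCDC80 (-0.58 ± 0.14, adjusted p = 0.0244).

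With inhibitor 0 of the 13 signature genes passed in limma, against 10.6% of all genes, while 7 had an unadjusted p below 0.05, against 27.5% of all genes. Their median change was 0.29, against -0.02 over all genes. The count of 0 rests on the probe set of highest mean. With the mean of a gene's probe sets 4 passed, 3 higher and 1 lower. The share of all genes passing that way was not counted. For ASAP1, 224796_at was called higher with inhibitor (0.53 ± 0.12, adjusted p = 0.0217) and 236533_at lower with MTAP (-0.52 ± 0.11, adjusted p = 0.0153). Its remaining probe sets were not called in either comparison. The block, with which 1508 of all 9453 genes passed, gave 2 calls in opposite directions, CCDC80 (0.63 ± 0.14, adjusted p = 0.0231) and FJX1, a secreted regulator of planar polarity (-0.55 ± 0.11, adjusted p = 0.0162). CCDC80 was chosen after its values were seen. It read 9.09, 8.85 and 8.98 in inhibitor-treated, 8.45, 7.93 and 8.64 in MTAP-positive and 8.80, 8.85 and 9.12 in MTAP-negative cells, lowest in the middle group as CCN1 and CCN2 were.

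AXL also read lowest in MTAP-positive cells. Its probe set of highest mean, 202686_s_at, gave 12.39, 12.05 and 12.45 with inhibitor, 12.05, 11.10 and 11.95 in MTAP-positive cells and 12.48, 12.46 and 12.33 in MTAP-negative cells. It was not called for MTAP (-0.72 ± 0.23, adjusted p = 0.0620) or the inhibitor (0.59 ± 0.23, adjusted p = 0.131), with MTAP-positive replicate 2 far below the rest. The dimmer AXL probe set 202685_s_at was called in both, at -0.39 (adjusted p = 0.0390) and 0.59 (adjusted p = 0.0112). F3 did not follow this order, since inhibitor-treated cells read 7.40, 7.48 and 7.48. F3 differed by 0.05 ± 0.14 with inhibitor (adjusted p = 0.862). With MTAP-negative cells as the reference for the inhibited ones, F3 was lower (-1.30 ± 0.14, adjusted p = 2.24e-04). In that comparison TGFB2 was higher (1.19 ± 0.17, adjusted p = 0.00107) and FJX1 lower (-0.60 ± 0.16, adjusted p = 0.0200), giving 1 higher and 2 lower of 13, against 32.2% of all genes called.

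Hippo kinases, adaptors and upstream regulators had values for 17 of 23 listed genes. With MTAP, WWC3 was higher (1.18 ± 0.15, adjusted p = 0.00126) and WWC1, which encodes KIBRA, lower (-0.95 ± 0.12, adjusted p = 0.00121). KIBRA and its relatives are scaffolds that activate LATS kinases. WWC1 read 7.42, 7.55 and 7.21 in MTAP-positive cells, against 8.36, 8.36 and 8.31 in MTAP-negative cells, while WWC3 averaged 8.28 ± 0.16, against 7.10 ± 0.09 (SD, n = 3). FRMD6, a FERM-domain regulator of the cascade, was lower (-0.61 ± 0.13, adjusted p = 0.0135), a call lost with the ACTB covariate (0.110). Its other probe set, 225481_at, was also called lower (-0.79 ± 0.14, adjusted p = 0.0065). By the probe set of highest mean 1 of 17 was higher and 2 lower, near the 15.1% of all genes called. With the block 3 were higher and 3 lower, against 21.6% of all genes, the block adding STK3, MAP4K4 and AMOTL1. NF2, the tumour suppressor merlin, differed by -0.40 ± 0.26 and was not called (218915_at, adjusted p = 0.328), though its dimmer probe set 217150_s_at was (-0.69 ± 0.13, adjusted p = 0.00848).

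With inhibitor the protocadherin FAT1 was lower (-0.64 ± 0.13, adjusted p = 0.0146) and the kinase MAP4K4, which can phosphorylate LATS, higher (0.52 ± 0.12, adjusted p = 0.0271). This is 1 of 17 genes in each direction, near the 10.6% of all genes called. Dimmer probe sets of MOB1A (201298_s_at, -0.51 ± 0.10, adjusted p = 0.016) and AMOTL1 (228840_at, -0.54 ± 0.14, adjusted p = 0.0436) were also called lower. By their probe sets of highest mean these genes differed by -0.19 ± 0.17 and 0.15 ± 0.16 and were not called. FAT1 read 9.68, 9.89 and 9.57 in inhibitor-treated cells, against 10.34, 10.51 and 10.21 in MTAP-positive cells. The FAT1 call was lost without inhibitor-treated replicate 1 (adjusted p = 0.0530) or 3 (0.0747). MAP4K4 lost its call in 6 alternatives, with adjusted p up to 0.297, and none of its other probe sets was called with inhibitor. With the block 3 were higher and 2 lower, against 1508 of all 9453 genes, the additions being WWC3, FRMD6 and TAOK2. Between inhibitor-treated and MTAP-negative cells 4 regulators were higher and 2 lower, led by WWC3 (1.58 ± 0.15, adjusted p = 1.40e-04), MAP4K4 (0.89 ± 0.12), WWC1 (-0.71 ± 0.12) and FAT1 (-0.62 ± 0.13), against the 32.2% of all genes called there.

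Of 7 other TEADs and vestigial-like cofactors only TEAD4 and VGLL4 had values. VGLL4, which competes with YAP for TEADs, was higher in MTAP-positive than in MTAP-negative cells (0.43 ± 0.12, adjusted p = 0.0422), a call lost in 11 of 19 alternatives, and higher in inhibitor-treated than in MTAP-negative cells (0.66 ± 0.12, adjusted p = 0.00334). The inhibitor itself gave 0.23 ± 0.12 for VGLL4 (adjusted p = 0.254). TEAD4 differed by -0.43 ± 0.14 with MTAP (adjusted p = 0.0681) and passed with the block (0.0197). None of 4 other CCN family genes, CCN3 to CCN6, had values.

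SRF, with its actin-controlled cofactors of the MRTF family, shares many targets with YAP, and 9 of 12 listed targets had values. For MTAP 0 of 9 was called in limma, against 15.1% of all genes, and 4 had an unadjusted p below 0.05, against 32.6%. Dimmer probe sets of the tropomyosin genes TPM1 and TPM2 were called in opposite directions. TPM1 206116_s_at was higher (0.67 ± 0.13, adjusted p = 0.00905) and TPM2 212654_at lower (-0.54 ± 0.12, adjusted p = 0.0185). The block called 1, the calponin gene CNN2 (0.40 ± 0.10, adjusted p = 0.0296), against 21.6% of all genes. The list's median change was 0.30, against 0.02 over all genes. With inhibitor only the myosin light chain MYL9 was called, 1 of 9 against 10.6% of all genes. It read 8.19, 8.26 and 7.98 in inhibitor-treated cells, against 9.04, 8.80 and 8.93 in MTAP-positive cells (-0.78 ± 0.19, adjusted p = 0.0319). The tropomyosin gene TPM1, by 210986_s_at, differed by 0.04 ± 0.11. Its dimmer probe set 206117_at was called higher with inhibitor (1.34 ± 0.16, adjusted p = 0.00252), and none of its others was called in that comparison. MYL9 lost its call when any of the 6 arrays compared was left out, and with the block CNN2, the tropomyosin gene TPM2 and MYL9 were lower and 0 genes higher, against 1508 of all 9453 genes. Against the 32.2% of all genes called there, 1 of 9 passed in the last comparison. The smooth muscle actin ACTA2 was higher in inhibitor-treated than in MTAP-negative cells (0.39 ± 0.12, adjusted p = 0.0346), a call lost in 6 alternatives with adjusted p up to 0.116.

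**Figure D4:**
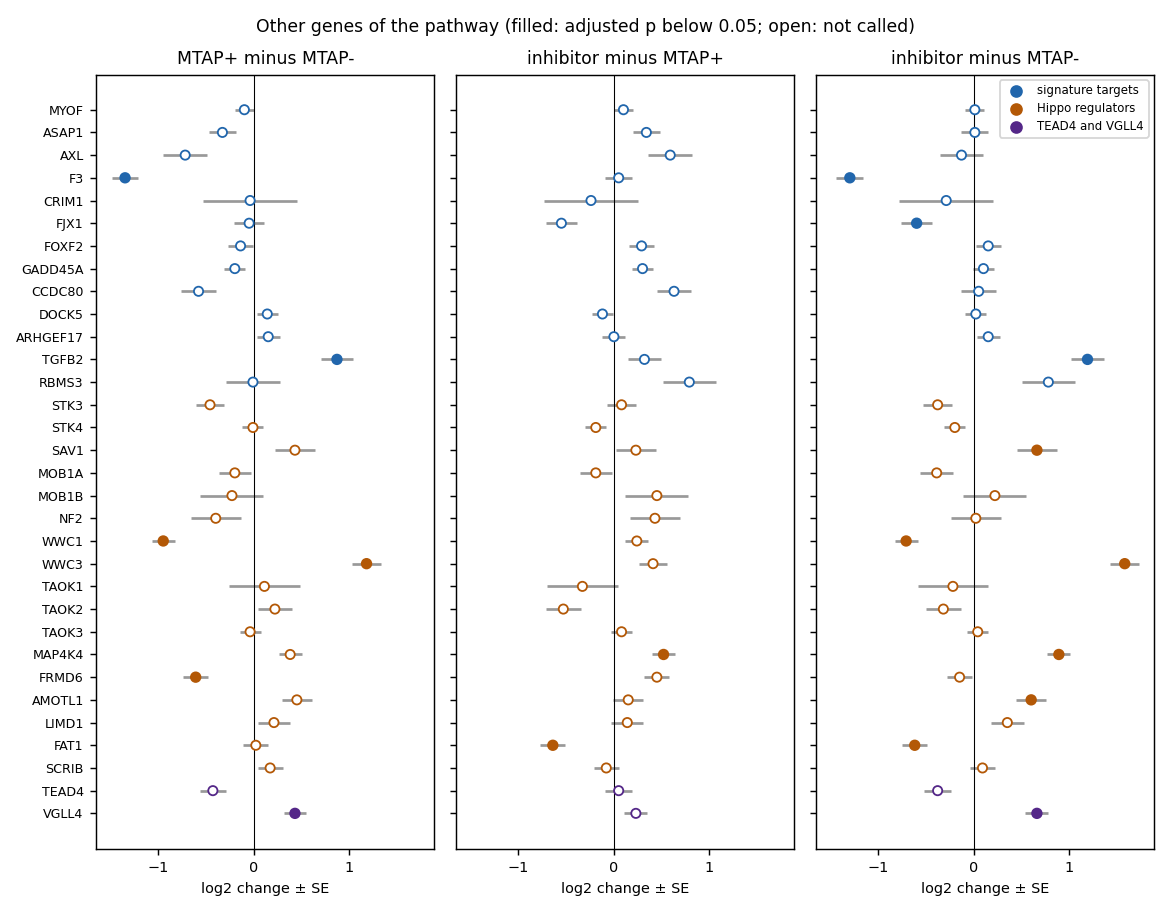
Log2 change ± SE (x axis) of 32 other pathway genes with values in the 3 comparisons; filled points have an adjusted p below 0.05. F3 lies far left in both comparisons against MTAP-negative cells and at 0.05 for the inhibitor, and WWC3 lies far right in the same comparisons.

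The genes whose values ran most like those of CCN1 and CCN2 over the 9 arrays were listed without any test, since the points share their groups. For CCN1 they were SUGCT (Pearson r = 0.989), HBE1 (0.986) and TTLL5 (0.974) of 9445 genes. For CCN2 they were BZW2 (0.973), SUSD1 (0.973) and TAF8 (0.966). SUSD1 averaged 8.42 ± 0.09 in inhibitor-treated, 6.82 ± 0.37 in MTAP-positive and 8.13 ± 0.18 in MTAP-negative cells (SD, n = 3).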

How the data were processed

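Biotin-labelled cRNA was hybridised to Affymetrix arrays, per the labels' protocols. The deposited values are log2 expression values that the authors made by RMA, as named in the submitters' processing notes. Its version and settings are not stated there. Of 54675 probe sets listed, 37201 had no value on any array, and each of the rest reached 6.64 on at least 3 arrays. Of these 17474 probe sets 8 were controls and were left out of the tests. Names came from the platform annotation, 15491 probe sets carrying 1 symbol, 841 several and 1142 none, checked through Entrez numbers (0 symbols changed).

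A linear model with 3 groups was fitted to all 9 arrays with limma 3.58.1 in R 4.3.3, with eBayes defaults and Benjamini-Hochberg adjustment over 17466 probe sets. No further filter was set. The fit was tested on simulated data. The series calls the arrays biological replicates, and p-values measure only the spread between them. The median SE of 0.140 is limited by 3 arrays per group.

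The labels number the arrays within groups. Same-numbered deviations from the group means correlated at 0.284, 0.225 and 0.248 between MTAP-positive and MTAP-negative arrays. Between inhibitor-treated and MTAP-positive arrays they correlated at 0.702, 0.594 and 0.321, so the numbers were taken to pair the groups in both comparisons. The main fit was still without this pairing. Changes, SEs and adjusted p above come from it unless the block or another alternative is named.

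Members and gene lists were chosen with earlier results of these data known. Named genes are all members, up to 4 called genes per list and comparison with groups apart, at most 2 uncalled ones of highest mean, and the 3 genes most like CCN1 and CCN2. Genes that only the block calls are also named in the 2 comparisons whose numbers pair. Some genes are named for a called probe set other than the one of highest mean.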

Additional observations from a re-analysis of the deposited data

How the results depend on the processing

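Each comparison was refitted under 20 alternatives. With MTAP, 3 to 5 members were called in all of them, and the calls and directions of CCN1, CCN2 and WWTR1 held in every alternative, with changes of -0.93 to -0.71, -0.85 to -0.69 and 0.71 to 1.04. AMOTL2 passed with centred arrays (adjusted p = 0.0469), array weights (0.0263) and without MTAP-positive replicate 2 (0.0413). With inhibitor, 1 to 2 members were called when single arrays were left out, and CCN2 was called in every alternative (0.80 to 0.96). Against MTAP-negative cells, 2 members were called with centred arrays, with trend and robust eBayes or with the mean of a gene's probe sets, 3 with array weights, and 1 to 2 when single arrays were left out. CCN1 was among them with array weights (0.0407) and with trend and robust eBayes (0.0481). With the replicate block 4, 2 and 1 members were called, as without it. Inhibitor-treated and MTAP-negative arrays of the same number correlated at 0.2, 0.008 and -0.006, and not every array matched its own number best. The signature list gave 1 to 4, 0 to 4 and 0 to 4 calls in the 3 comparisons, the Hippo list 2 to 6, 0 to 5 and 4 to 7, TEAD4 and VGLL4 0 to 2, 0 and 0 to 2, and the SRF list 0 to 2, 0 to 3 and 0 to 2.

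Members that were not called changed sign near 0. With MTAP, AJUBA became -0.05 with centred and -0.01 with quantile normalised arrays and ranged from -0.07 to 0.13 when single arrays were left out, and TEAD1 from -0.23 to 0.14. With inhibitor, WWTR1 became -0.03 with array weights and -0.17 with the mean of its probe sets, and LATS2 -0.02 with that mean. When single arrays were left out, WWTR1 ranged from -0.05 to 0.07, TEAD1 from -0.27 to 0.10 and AMOTL2 from -0.04 to 0.14. Against MTAP-negative cells, YAP1 became -0.01 with centred arrays and AXL 0.01 with the ACTB covariate and 0.03 with the mean of its probe sets. Centring moved the median change of all probe sets for MTAP to -0.032, against 0.045 before. The causes of these shifts were not tested. Signal over background was not given, which limits dim probe sets such as TEAD1 214600_at.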
